A study of Drosophila melanogaster with 15 samples.

Results

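Non-coding transcription units that lie clear of every gene on the other strand are described here, as they stand in the map that an mNET-seq study of Drosophila melanogaster embryos used to read nascent transcription. A unit is a stretch of 1 strand that holds 1 gene or several genes. The rule by which genes were joined is not stated in the sources used here. The units were selected by name and position: every gene symbol is CR followed by digits alone, the unit lies on X, 2L, 2R, 3L or 3R, and it shares no base with a unit of the opposite strand. The rule found 1331 units among 15739 on those 5 arms (8.46%) and among 15991 in all. They are called intergenic CR units below. Of 2227 units that hold CR genes alone, they make up 59.8%, and the other 896 overlap a unit on the opposite strand.

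The study compared stage 15 embryos of maternal UAS-mof RNAi with control RNAi embryos, sorted by sex, in 15 samples. Females gave 4 control and 4 MOF samples, and males gave 3 control samples (replicates 2 to 4, with replicate 1 not analysed here) and 4 MOF samples. MOF is the acetyltransferase of histone H4 that works in the dosage compensation complex of male flies. The driver of the RNAi is not given in the sources used here, and each preparation pooled many embryos. The data analysed are unit positions on build dm6 and hold no value of any sample. No unit below is therefore shown to be transcribed in these embryos, and no group was compared with another.

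In fly gene catalogues a CR number marks a gene with no known protein product, while a CG number marks a protein-coding gene that has no other name. CR genes are a mixed class of long non-coding RNAs, which are transcribed by RNA polymerase II and often have narrow windows of expression, and of pseudogenes, which are damaged copies of other genes. Long non-coding RNAs are known to lie near genes of transcription factors and signals that pattern the embryo. A start that faces away from another start close by can share its promoter region. A unit just downstream of a gene on the same strand lies where polymerase that has passed the gene's end still travels. Place and strand relative to the neighbours thus bear on how reads over such a unit can be assigned.

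The units were mostly single long non-coding RNA genes. They held 1336 CR genes, with 1 gene in 1326 units and 2 genes in 5. RefSeq's gene table matched 1332 of the genes and gave the type lncRNA to 1187 of them (88.8%), pseudogene to 138 (10.3%) and protein-coding to 7. Among CR genes of the units with an opposite-strand overlap, 49.7% were antisense RNA, 46.7% lncRNA and 3.34% pseudogenes. The antisense class is defined by the overlap that the rule removed, so its absence from the intergenic units follows from the rule. Of 1322 single-gene units with a match, 1293 had exactly RefSeq's bounds. Most units had 1 annotated transcript (1194, or 89.7%), 118 had 2, 18 had 3 and a single unit had 6.

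The 7 genes that RefSeq now counts as protein-coding were all on 2L and 2R. CR44404 is IBIN, a gene named for its induction by infection. Its unit spanned 2R from 17671068 to 17671295 (228 bp) and ended 13 bp from the end of P32 on the other strand. CR43610 (405 bp, now CG43610), CR43428 (1665 bp, now CG43428) and CR43405 (481 bp, now CG43405) had the same bounds in both sources. The bounds differed for CR44198 (417 bp against 245 bp for CG44198), CR45273 (508 bp against 437 bp for CG45273) and CR44666 (401 bp against 3225 bp for CG44666). The last unit thus covers a small stretch of the present gene model. No match was found for CR45459, CR45460, CR45368 and CR45557.

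Intergenic CR units were short. Their median length was 629 bp (quartiles 430.5 and 949.5 bp, n = 1331), with 76.8% under 1000 bp and 21 units over 5000 bp. CR units that overlap an opposite-strand unit had a median of 840.5 bp (n = 896). Units with other genes that also overlap no opposite-strand unit had a median of 1985 bp (n = 8211), of which 24.2% were under 1000 bp. Over the 5 arms the medians of intergenic CR units lay between 565.5 bp on 3L and 717 bp on 3R, while those of the other units lay between 1821.5 bp on 2R and 2457 bp on X, so the ranges did not meet. Pseudogenes (median 677 bp, n = 138) and units of lncRNA genes alone (627 bp, n = 1182) differed by less than the arms did. Units with 2 or more transcripts had a median of 1042 bp (n = 137), those with 1 transcript 601 bp. These are descriptions of a complete list, with no test: units of an annotation are not replicates of a condition.

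**Figure D1:**
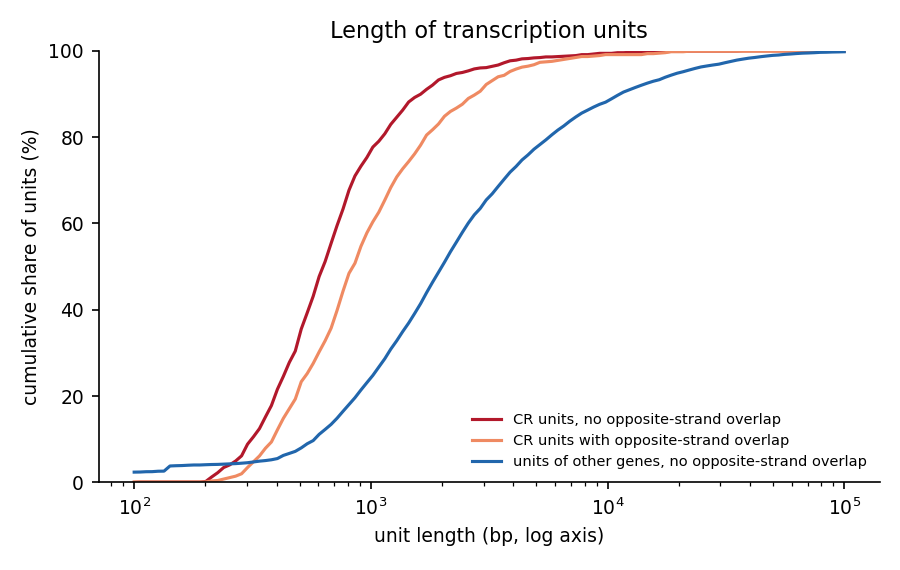
Cumulative share of units (%) by unit length (bp, log axis) for intergenic CR units, CR units with an opposite-strand overlap, and units of other genes without one. The medians are 629, 840.5 and 1985 bp, and the curve of intergenic CR units lies to the left of the other curves over most of its range.

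The 5 longest autosomal units exceeded 10 kb each. CR31386 on 3R (11269415 to 11305608) covered 36194 bp and lay 22871 bp upstream of pros, which encodes a homeodomain protein of neural fate, on the other strand. CR32111 on 3L (20347 bp) began 6135 bp after the end of caup, an Iroquois homeobox gene, on the same strand. The joint unit of CR46061 and CR46062 on 3R measured 17608 bp and ended 1136 bp from the end of Ald, the aldolase gene. The pseudogene CR41320 on 3L (13559 bp) and CR44177 on 3R (12610 bp, 61 bp from HtrA2, a mitochondrial protease gene) followed. On X the longest were CR44754 (10958 bp), CR45533 (4733 bp), CR43278 (4324 bp), CR44498 (4203 bp) and CR45484 (3736 bp). CR44754 alone of the X units passed 5000 bp, against 3 on 3L to 9 on 3R among the autosomal arms.

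At the short end, the lengths stopped near 200 bp with a single exception. The pseudogene CR43240 on 2L measured 102 bp, and CR45368 on 2L 200 bp. CR44463, CR44629 and CR44649 on 2R each measured 201 bp. On X the shortest were CR45515 (200 bp), CR45539 (202 bp), CR45628 (205 bp), CR45627 (208 bp) and CR40469 (214 bp). Units of at most 300 bp were 12.3% of the X units (23 of 187) and 4.55% (3R) to 9.46% (2L) on the autosomal arms.

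Many lengths on 2R were round numbers. A length of 1 bp above a multiple of 50 was found for 74 of 209 units on 2R (35.4%) and for 30 of 264 on 3R (11.4%). It was found for 2.14% of the units on X, 2.81% on 2L and 2.14% on 3L, and for 2.04% of all units with other genes on the 5 arms. CR units with an opposite-strand overlap had it too on 2R, in 29 of 169 (17.2%), against 1.90% on 3R. The starts shared the pattern: of the 74 on 2R, 62 began at a position with the same remainder (45) when divided by 50, and of the 30 on 3R, 19 began at a remainder of 28. Of the 29 units on 2R with an overlap, 25 began at the remainder of 45. Intergenic examples are CR44629 (2R 20014495 to 20014695) and CR44463 (2R 15217995 to 15218195). Intergenic CR units with CR44 numbers carried the pattern most often (93 of 493, or 18.9%), those with CR43 numbers in 2.87% and with CR45 numbers in 5.08%. The commonest lengths of all were 501 bp (12 units) and 601 bp (11 units). How these lengths arose was not tested, and distances on 2R and 3R are measured from the same starts and ends. Without such lengths the median of intergenic CR units was 625 bp over the 5 arms and 695 bp on 2R.

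The CR number also sorts the units. Numbers from 43000 upwards belonged to 1219 of the 1336 genes (91.2%), 495 of them starting with CR44 and 435 with CR45. Among single-gene units with lower numbers, 69 of 117 were pseudogenes and the median length was 843 bp. Among those with higher numbers, 69 of 1209 were pseudogenes and the median was 608 bp.

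Intergenic CR units lay far from named genes. A named unit here is a unit that holds at least 1 gene with a name other than a CG or CR number, with tRNA, microRNA, snoRNA and similar small RNA genes left out and hairpin RNA genes kept, and the distance is the number of bases between the nearest bounds on either strand. The median distance was 5356 bp (quartiles 1474.5 and 15679 bp), against 766 bp for the units of other genes without opposite-strand overlap. A named unit lay within 500 bp of 14.3% of intergenic CR units and of 43.4% of those other units. Pseudogenes lay closer (median 2723.5 bp, 29.7% within 500 bp) than units of lncRNA genes alone (5616.5 bp, 12.3% within 500 bp). With CG genes counted as well, the median to a unit with any gene other than CR was 1694 bp, against 246 bp for the other units. The nearest unit of any kind lay at a median of 687 bp, against 231 bp for the other units.

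The closest neighbours of named genes stood on either side of them. On the autosomal arms CR46040 lay 2 bp from a unit with the hairpin RNA gene hpRNA:1, CR45291 8 bp from qtc, CR44209 8 bp from Cyt-b5 (cytochrome b5), the pseudogene CR10991 8 bp from disp, which encodes the protein that releases Hedgehog, and CR41601 11 bp from Gfat1. On X, CR45473 lay 10 bp from tyn and the pseudogene CR17438 15 bp from ric8a. All 7 were on the strand opposite to that neighbour. The 5 farthest units of the autosomal arms were pseudogenes: CR41320 lay 402455 bp from FASN3, CR41379 279768 bp from Maf1, CR45227 177122 bp and CR41501 121298 bp from the neuropeptide gene RYa, and CR41243 143842 bp from dpr21. On X the farthest were CR43835 (94645 bp), CR43279 (88746 bp), CR43278 (83155 bp) and CR45534 (81754 bp), all beside the same joint unit, and CR45506 (71064 bp from unc). None of these X units is a pseudogene. Distances over 50 kb were found for 67 units (5.03%), against 1.47% of the other units without opposite-strand overlap. The 67 were 55 of the 1182 units of lncRNA genes alone (4.65%) and 12 of the 138 pseudogenes (8.70%).

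Seen from the nearest named unit, the 4 possible arrangements were nearly even. Upstream on the same strand lay 25.8% of intergenic CR units (344), upstream on the other strand, with starts back to back, 26.5% (353), downstream on the same strand 24.8% (330), and downstream on the other strand, with ends facing, 22.8% (304). The other units without opposite-strand overlap gave 24.4%, 24.1%, 24.5% and 27.0% in that order. The upstream share on X was 54.5%, inside the 50.4% (2L) to 56.0% (2R) of the autosomal arms.

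Arrangement changed with distance. Within 200 bp (107 units), 65.4% lay on the other strand, 34 with starts back to back and 36 with ends facing, and 15 lay upstream on the same strand. Between 500 and 2000 bp (204 units), 61.3% lay upstream of the named unit, on either strand, and the rest downstream, 42 units on the same and 37 on the other strand. Beyond 10000 bp (476 units) each arrangement held between 23.3% and 26.3%. Of the other units without opposite-strand overlap, 54.5% lay upstream between 500 and 2000 bp (1521). Between 200 and 500 bp the upstream share was 61.4% for intergenic CR units and 63.7% for the other units. The other-strand share was 67.8% among the other units within 200 bp of a named unit (2105). There, ends faced in 47.6% and starts stood back to back in 20.2%, so facing ends were the commonest form, while the intergenic CR units had 33.6% and 31.8%. Opposite-strand overlaps, at starts as well as at ends, were removed from both sets by the rule.

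**Figure D2:**
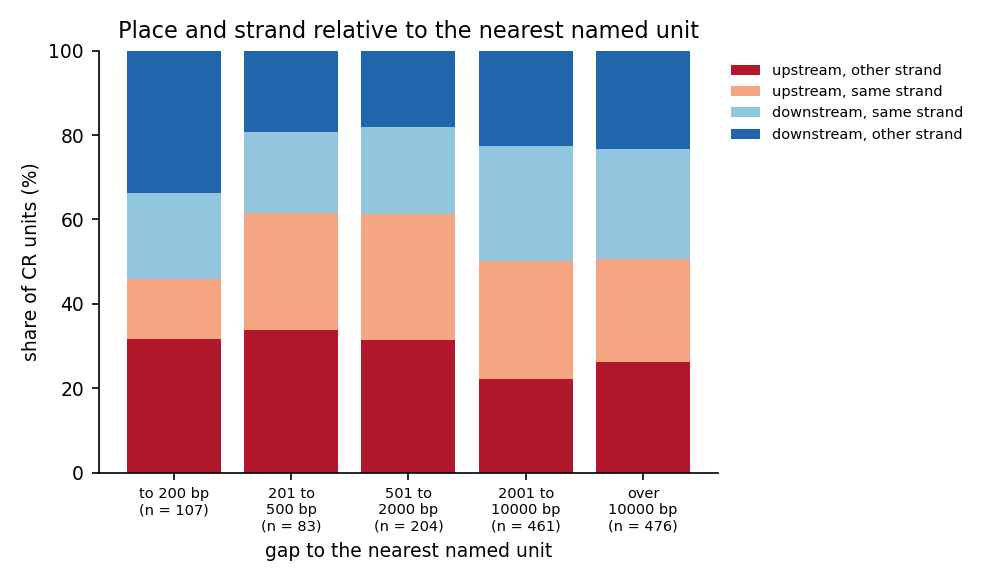
Share of intergenic CR units (%) in each of 4 arrangements relative to the nearest named unit, by the gap to it, with the number of units under each bar. Within 200 bp the other-strand arrangements make up 65.4%, and beyond 10000 bp no arrangement holds more than 26.3%.

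Divergent starts made up a smaller share than among other units. An opposite-strand start stood at most 500 bp upstream of the start of 189 intergenic CR units (14.2%), against 24.5% of all units of the 5 arms and 26.3% of the other units without opposite-strand overlap. The share was 11.2% on X (21 of 187) and ran from 12.1% on 3R to 21.1% on 2R among the autosomal arms, so that X lay just under their range. Over the other units it was 26.0% on X and 26.4% on the autosomal arms together. Where a named unit lay within 2000 bp, 25.1% of the 394 intergenic CR units had a divergent start, and where it lay beyond 10000 bp 9.24% did. The other units were not split by distance in this way. A divergent start at a named unit also places that unit within 2000 bp by itself. The part of distance in the lower share was not tested.

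**Figure D3:**
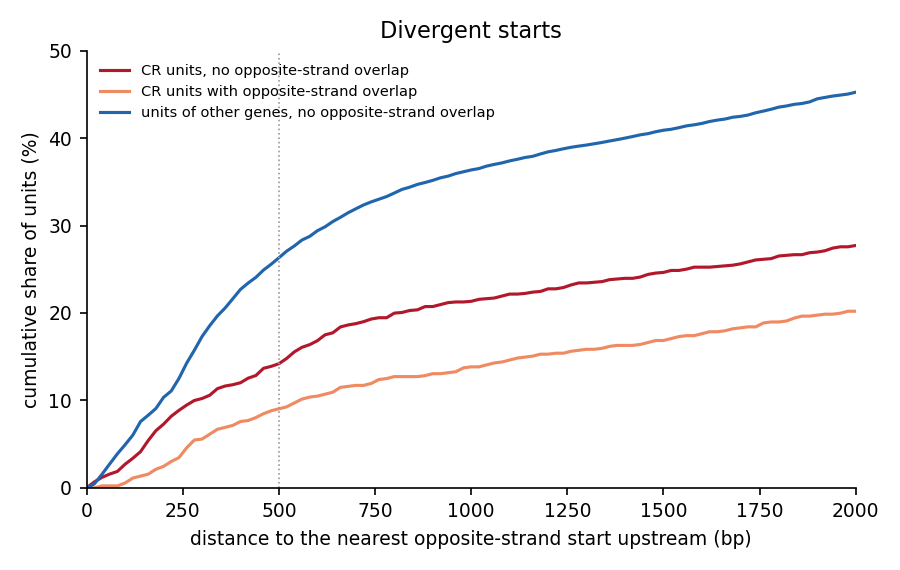
Cumulative share of units (%) with an opposite-strand start upstream, by start-to-start distance (bp), for the same 3 sets of units. At the dotted line of 500 bp the shares are 14.2% for intergenic CR units, 9.04% for CR units with an opposite-strand overlap and 26.3% for units of other genes.

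The partner was a coding unit for 131 of the 189 (69.3%), at a median start-to-start distance of 174 bp, and another intergenic CR unit for 45, at 250 bp. The remaining partners were 6 CR units with an opposite-strand overlap and 7 other non-coding units. The closest pairs were CR43983 with CG43982 on 2R and CR45401 with CR45402 on 3L, each with starts on neighbouring bases (1 bp). The 2 units of the second pair measure 412 and 413 bp and share no base. CR46040 stood 3 bp from the unit of hpRNA:1, and CR44198 6 bp from CG43050. Among the 21 divergent units on X, the 5 closest had as partners tyn (11 bp from CR45473), which encodes a zona pellucida domain protein, the polyubiquitin gene Ubi-p5E (33 bp from CR45530), prtp (36 bp from CR45618), a gene of the engulfment of dying cells, run (37 bp from CR45610) and Chc (111 bp from CR32582), the clathrin heavy chain gene. Of these 5 start distances, 4 were between 11 and 37 bp. Farther X partners included CG4928, at 456 bp from CR44754, and ric8b, typed as non-coding, at 175 bp from CR17438.

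A unit that touches no gene must fit into a gap between genes, and larger gaps held the units more often. A gap is a stretch that no unit of another kind covers on either strand. The 5 arms had 10711 gaps with 40.5 Mb in all, and 930 of them held the 1328 intergenic CR units that lie between other units. Gaps with such a unit had a median size of 9819 bp, all gaps 444 bp. Of gaps up to 1 kb 0.599% were occupied, of those from 2 to 5 kb 18.3%, from 10 to 20 kb 38.7%, and over 50 kb 59.2% (61 of 103). Per base the order turned: the density was 69.5 units per Mb in gaps of 1 to 2 kb, 67.9 in gaps of 2 to 5 kb, 29.9 in gaps of 20 to 50 kb and 11.7 in gaps over 50 kb. Gaps up to 1 kb held 19.7 units per Mb, and the part of unit length in that value was not tested.

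**Figure D4:**
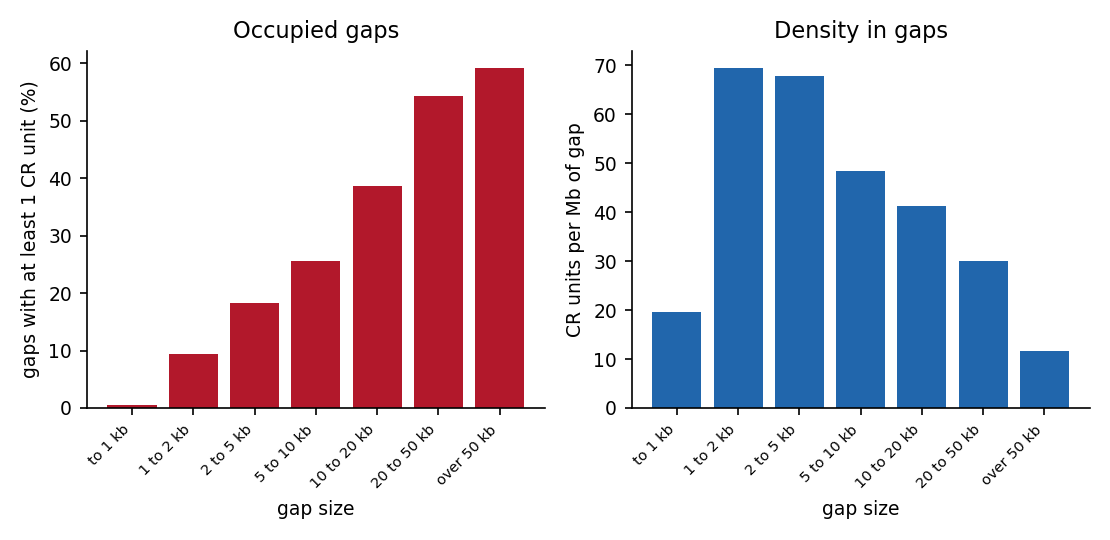
Left, share of gaps (%) that hold at least 1 intergenic CR unit, and right, intergenic CR units per Mb of gap, both by gap size. The share rises with each size to 59.2% over 50 kb, and the density is highest at 1 to 2 kb (69.5 per Mb) and falls to 11.7 per Mb.

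Neighbouring units formed runs. A run is a row of at least 2 intergenic CR units with no unit of another kind between them and gaps of at most 10 kb. There were 234 runs with 562 units (42.2%), 172 of them pairs, 42 of 3 units and 9 of 5 or more. Between neighbours in a run the median gap was 1283 bp, and 59.1% of the 328 neighbour pairs lay on the same strand. Runs and neighbour pairs of other units were not counted. With any unit allowed between, another intergenic CR unit lay within 10 kb of 50.6% of intergenic CR units. An intergenic CR unit lay that close to 23.9% of the other units without opposite-strand overlap. The part of gap space in these shares was not tested. The share of units in runs was 41.2% on X, within the range from 28.7% on 2R to 48.3% on 2L.

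The longest run on X is a tandem array of pseudogenes. CR43217, CR43216, CR43215, CR43214, CR43213, CR43212 and CR43211 stood in a row on the plus strand from 11586228 to 11599638. Of the 7 units, 6 were exactly 1891 bp long, and the gaps between those 6 were exactly 202 bp, so that each started 2093 bp after the one before. CR43217 measured 717 bp. The named unit nearest to each of the 7 was nod, a kinesin-like gene of female meiosis, or rho-4, a rhomboid protease gene, at 199 to 5718 bp. CR43217 began 5795 bp after the end of roX2, a non-coding RNA of the dosage compensation complex, on the same strand. How alike the copies are in sequence was not tested. For mof itself the nearest intergenic CR unit was CR45529 at 62833 bp, for roX1 CR33221 at 58201 bp, and for msl-2, the male-specific subunit gene, CR45372 at 9252 bp.

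The next 4 runs on X by number of units, and the first 5 on the autosomal arms, held lncRNA genes alone. Shorter autosomal runs made of pseudogenes alone included CR43276 to CR43186 on 2R (4 units) and CR42722 to CR41597 on 3L (3 units). On X, CR45534 to CR43835 held 4 units in 13832 bp, CR43132 to CR45526 4 units in 4893 bp near Pis, CR45667 to CR45665 3 units in 1948 bp near CHES-1-like and ct, the homeobox gene cut, and CR45616 to CR44524 3 units in 2245 bp near the potassium channel gene Ork1. On 2L, CR45720 to CR45296 held 6 units in 17282 bp near RpL40 and Art2. CR44983 to CR44078 held 5 units in 16968 bp near Cep97 and slp2, a forkhead gene of segmentation, CR45358 to CR44411 5 units in 13569 bp near the bHLH gene Oli, and CR45704 to CR44804 5 units in 10132 bp, at 59227 to 68686 bp from the unit of tio, a zinc-finger gene. On 3L, CR44544 to CR46231 held 5 units in 13819 bp, all on the plus strand and 59480 to 72528 bp from tna. The other 4 autosomal runs held units of both strands.

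Some named genes were the nearest neighbour of many units. The 1331 units shared 840 named units, 566 of which had a single intergenic CR unit and 23 had 5 or more. On 2R, 18w, a Toll-family receptor gene, had 10 units at 20026 to 103865 bp. The tio unit on 2L had 9, and so did tna on 3L, all 9 of them upstream of it. Obp56i, an odorant-binding protein gene, the growth regulator gene scyl and caps, which encodes a leucine-rich repeat protein of neurons, had 8 each, as did Hers on X, with all 8 downstream and all of them pseudogenes. CR32821 with CR45495 and CR43377 with CR45496 each formed a pair of 354 and 629 bp there, and CR43379 with CR45497 a pair of 352 and 629 bp. Both Fas3, a cell adhesion gene, and the X unit that holds unc-119 and Atg5 had 7.

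Developmental genes were more often near intergenic CR units than near other units. The lists held 161 patterning genes, 157 of them on the 5 arms, and a unit counted as near within 20 kb. That was so for 123 intergenic CR units (9.24%), against 4.86% of units with other genes, the listed ones left out, a ratio of 1.90. These 13355 other units include those with an opposite-strand overlap, unlike the sets used above for length, distance and divergent starts. The ratio was above 1 on each arm, from 1.28 on 3L to 2.29 on 2L among the autosomal arms, with 2.35 on X. Gap space moves with it: the windows within 20 kb of listed genes held 40.5 units per Mb of gap and all gaps 32.8, a ratio of 1.24, and the part of gap space was not tested. By list, the units near segmentation genes were 2.40% against 0.764% of other units, near appendage and eye genes 1.65% against 0.666%, near neural fate genes 1.88% against 1.16%, near mesoderm and endoderm genes 1.65% against 1.06%, near signal ligand genes 1.35% against 0.943%, and near Hox genes 0.451% against 0.329%. Per Mb of gap within 20 kb the order differed, with 51.5 units near neural fate genes, 42.8 near signal ligand genes, 41.8 near mesoderm and endoderm genes, 37.6 near Hox genes, 36.9 near appendage and eye genes and 35.9 near segmentation genes. Of the 157 listed units, 82 had at least 1 intergenic CR unit within 20 kb, and other named units were not counted in this way. Upstream of the nearest listed gene lay 76 of the 123 units. Relative to the nearest named unit, listed or not, 52.4% of all intergenic CR units lay upstream (697 of 1331). By distance that share ran from 45.8% within 200 bp to 61.4% between 200 and 500 bp.

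Among the Hox genes, which set segment identity, Antp had the closest units. CR44932 (951 bp) began 124 bp and CR45559 (545 bp) 2790 bp after its end on the same strand, and CR45899 (932 bp) lay 1263 bp upstream of its start on the other strand. With CR44931 (7601 bp) Antp had 4 units within 20 kb. Only 3 of the 8 Hox units had any.

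In the segmentation list the closest was CR45610 (X 20690320 to 20690633, 314 bp), 36 bp upstream of run on the other strand. The run gene is a pair-rule gene and also one of the X-linked signals of sex. CR44593 (1405 bp) lay 793 bp upstream of the pair-rule gene prd on the other strand, and CR44308 (490 bp) 913 bp upstream of drm on the same strand. The slp2 gene had 5 units within 20 kb, at 5944 to 18305 bp, and sob, a relative of odd, had 4.

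In the neural fate list, CR44905 (1099 bp) lay 357 bp upstream of the LIM homeobox gene Lim3 with starts back to back. CR45038 (404 bp) ended 364 bp from the end of E(spl)mbeta-HLH, and CR45037 (1264 bp) began 439 bp after the end of E(spl)mgamma-HLH, both repressor genes of the Notch response. This complex held 5 intergenic CR units, CR45037, CR45038, CR45039, CR43643 and CR43644, which count for several listed genes at once. In the mesoderm and endoderm list, CR42839 (3753 bp) lay 239 bp from the end of the GATA factor gene srp, CR44032 (774 bp) 580 bp upstream of the homeobox gene C15, both on the other strand, and CR46237 (733 bp) 1495 bp downstream of vg on the same strand.

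In the appendage and eye list, CR46098 (301 bp) ended 70 bp upstream of danr on the same strand, the pseudogene CR10032 (918 bp) lay 107 bp from the end of the zinc-finger gene rn, and CR43724 (1007 bp) 1347 bp upstream of the eye homeobox gene Optix. The rn unit had 5 units within 20 kb. In the signal ligand list, CR44912 (832 bp) lay 490 bp upstream of dpp, a BMP ligand gene, with starts back to back. CR45608 (848 bp) lay 1210 bp upstream of upd1 and CR45607 (289 bp) 1607 bp upstream of upd2, both ligand genes of the JAK/STAT pathway, on the same strand. Divergent starts within 500 bp of a listed gene were found at run, Lim3 and dpp alone. With partners of any kind, 8.13% of the 123 units near listed genes had a divergent start, against 14.2% of all intergenic CR units.

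Joint units of CR genes were rare. Besides CR46061 with CR46062, they were CR44596 with CR44595 (2106 bp), 4074 bp upstream of the POU gene nub, CR44398 with CR44397 (3594 bp) near btv, and CR45672 with CR45442 (344 bp) and CR45671 with CR45443 (266 bp), both upstream of rt.

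The standing of X depended on the scale. Intergenic CR units were 7.79% of X units (187 of 2399), and 12.3% on 2L, 6.45% on 2R, 8.98% on 3L and 6.93% on 3R. Per Mb of gap the values were 32.0 on X, 50.2 on 2L, 25.5 on 2R, 27.5 on 3L and 31.0 on 3R, so X lay inside the range of the autosomal arms on both scales. Per Mb of the whole arm X lay below that range, with 8.07 units against 8.38 (2R and 3R) to 16.8 (2L), and without pseudogenes with 6.30 against 7.30 (2R) to 15.4 (2L). The share of units on X was 0.909 of the autosomal share, 0.775 with pseudogenes left out, and the ratio was 0.760 per Mb of arm. A single arm set against 4 cannot reach a low p, and no test was run. X stood above that range in its pseudogenes, which were 21.9% of its intergenic CR units (41), against 6.82% on 3R to 12.9% on 2R. Without the 7-unit array the X share was 18.9% (34 of 180). X held 5 more runs made of pseudogenes alone, and with all such runs left out on every arm the share was 14.1% on X (24 of 170), against 5.82% on 3L to 9.45% on 2R. The median distance to a named unit was 4136 bp on X, just under the autosomal range of 4199.5 bp (3R) to 7020 bp (2L).

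The arm with most units was 2L. It held 391, and the stretch from 14 to 19 Mb held 128 of them, 22.5% of the 570 units there. That was 63.3 per Mb of gap, and the rest of 2L held 45.6 per Mb, still above the other arms. CR units with an opposite-strand overlap did not show this order: they were 6.02% of units on 2L, between 4.96% on X and 6.64% on 3L.

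**Figure D5:**
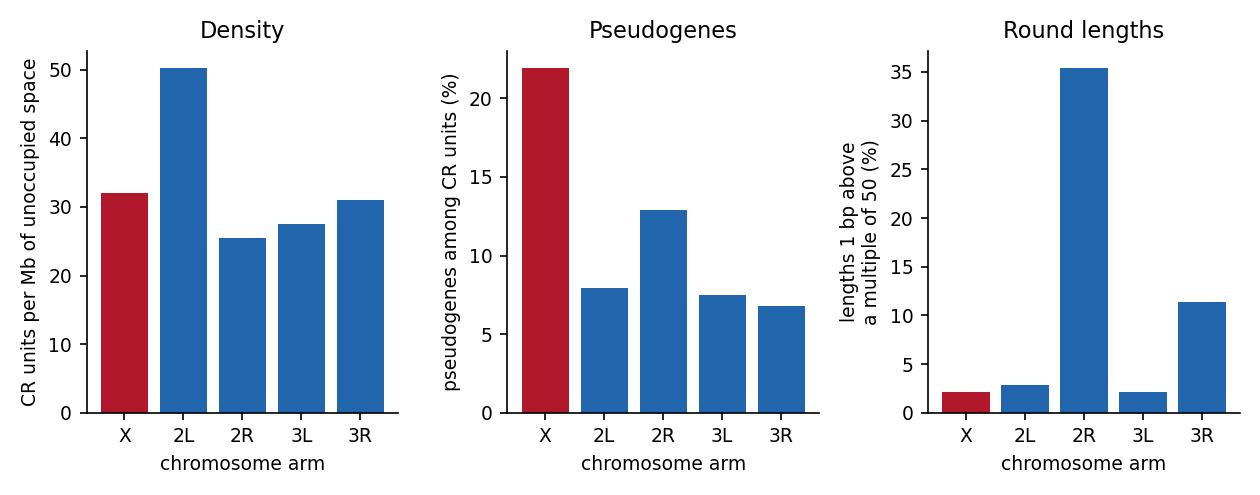
Intergenic CR units by chromosome arm, with X in red: units per Mb of gap (left), share of pseudogenes (%, middle) and share of lengths 1 bp above a multiple of 50 (%, right). The highest bars are 2L with 50.2 per Mb, X with 21.9% and 2R with 35.4%.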

How the data were processed

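The labels describe 15 mNET-seq samples of stage 15 embryos. The only file analysed holds positions of transcription units on build dm6 (per the submitters' processing notes), which the authors wrote with rtracklayer 1.48.0, per the file headers. The sources used here state neither the rule for joining genes nor the annotation release. The file has no read counts, so depth is unknown and no p-value was computed.

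Unit bounds, strands and gene symbols were read with Python 3.11.15 and pandas 2.3.3. Gene types came from RefSeq's table of Release 6 plus ISO1 MT, matched on chromosome by symbol, gene ID, CR number or synonym. The overlap, distance, divergent start and run functions were checked on made-up units against direct enumeration. Spread is given as the range over chromosome arms. Named units were the 5 longest, shortest, closest divergent and farthest on X and on the autosomal arms, the 5 fullest runs on each, the units with most genes, and 3 per gene list. Those closest to a named gene, the protein-coding and unmatched genes, the round lengths, the gaps, the 2L stretch, the runs of pseudogenes and the neighbours of the dosage compensation genes were chosen after their values were seen. Members, gene lists and thresholds were chosen with earlier results of these data known. Start motifs were planned, and no sequence was used here.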

Additional observations from a re-analysis of the deposited data

How the results depend on the processing

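Among the alternatives, 36 of 56 moved a value by less than a set tolerance (1 SD over arms, a 95% exact binomial interval for shares, or 1.5-fold for the number of units). The binomial interval serves only as a yardstick of size, since units of an annotation are not replicates. The number of units, their median length and the ratio of X to autosomes stayed within the tolerance under each alternative run for them. For the X ratio that tolerance was wide, an SD of 0.312 over the 4 autosomal arms, and the alternatives gave 0.760 to 0.970. Staying within it does not settle where X stands among the arms, which changed with the scale. The median distance to a named unit was 1694 bp with CG genes counted and 1892 bp with coding units. Arrangement: upstream on the same strand 28.6% and ends facing 20.6% with coding units as neighbours. With named units within 2000 bp alone, starts back to back were 32.0% and downstream on the same strand 20.3%. Divergent starts were 7.29% within 200 bp, 21.3% within 1000 bp, 9.84% with coding partners, and 25.1% for units with a named unit within 2000 bp. Units in runs were 50.04% with no limit on the gap and 50.6% with other units allowed between. Near developmental genes lay 5.79% within 10 kb and 15.3% within 50 kb, and without the segmentation list 6.99%, the neural fate list 7.36%, and the mesoderm and endoderm or the appendage and eye list 7.59% each. The ratio to other units was 1.37 within 50 kb and 1.24 per Mb of gap. These thresholds change the quantity by construction. The ratio per Mb of gap, the restriction of divergent starts by distance, the gap densities of X, the pseudogene shares without runs of pseudogenes and the median without round lengths were added after the data were seen. Start motifs were not run. No paired analysis was possible because the file holds no value of any sample.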
